A study of Mus musculus and Homo sapiens with 24 samples.

Results

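The response of HepG2 cells to cobalt chloride (CoCl2) was examined by RNA-Seq in 6 of the 12 libraries of a cell culture experiment. HepG2 is a human hepatoma line that keeps many hepatocyte functions, and CoCl2 is used as a chemical stand-in for hypoxia. The 3 CoCl2 libraries came from cells given 50 µM CoCl2 for 4 h without estrogen, and the 3 control libraries from cells given neither agent. No vehicle for the control cells is named in the sources used here, and nothing in them says that replicates A, B and C of a group came from cultures grown separately, so the p-values measure the spread between these libraries, which may be technical. The other 6 libraries held cells given 25 nM β-estradiol for 4 h, alone (estrogen) or together with 50 µM CoCl2 (CoCl2+estrogen). The comparison covered every gene whose count exceeded 5 in any of the 6 control and CoCl2 libraries, 15872 of the 28278 genes in the table. Just inside this limit lay 306 genes whose highest count was 6, and just outside it 352 genes whose highest count was 5.

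Hypoxia is sensed through the hypoxia-inducible factors (HIFs). In oxygenated cells, prolyl hydroxylases of the EGLN family modify the HIF-α subunits, which are then bound by the VHL ubiquitin ligase and degraded. The hydroxylases need iron, oxygen and 2-oxoglutarate, and cobalt interferes with them, so that HIF-α protein builds up in the presence of oxygen and turns on genes of glucose uptake, glycolysis, angiogenesis and red cell production. Regulation of HIF-α is therefore mainly at the level of the protein, which RNA-Seq does not measure.

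The counts summed to between 13592629 and 21701479 per library. CoCl2 replicate B had the smallest total and stood apart, with correlations of log values of 0.963 to 0.978 with the other 5 libraries, where all other pairs lay between 0.984 and 0.993, and with 4.30% of its counts on ribosomal RNA genes against 0.985% to 1.63% in the others. Without it, 232 genes were called in place of 229, of which 193 were shared, 36 of the 229 were lost and 39 were added. All 20 hepatocyte markers had counts in every library, and their summed level was 33550 to 36260 CPM (counts relative to the TMM-scaled library total) in control and 36480 to 38100 CPM in CoCl2 libraries. None of the 20 was called in edgeR, 6 had an unadjusted p under 0.05 and DESeq2 called 1. Albumin (ALB) averaged 6918 ± 377 CPM in control cells and 6795 ± 609 CPM in CoCl2 cells (SD, n = 3 each). Of 18 markers of other liver cells, 9 or 10 had counts in each library, PTPRC, CD163, MARCO, KDR, COL1A2, COL3A1, DCN and LRAT were listed at 0, and none of the 8 tested was called by edgeR or DESeq2 or had an unadjusted p under 0.05. Their summed level was 1231 to 1397 CPM in control and 1261 to 1400 CPM in CoCl2 libraries, of which all but 119 to 132 CPM came from LYZ. The part of the ribosomal RNA share and of the hepatocyte marker level in the results was not tested.

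CoCl2 changed the expression of 229 genes, 1.44% of those tested, and the changes were mostly rises. The level was higher in CoCl2 cells for 208 genes (1.31%) and lower for 21 (0.132%), at an adjusted p of at most 0.05 by the quasi-likelihood test of edgeR (Benjamini-Hochberg). Every adjusted p given here is from that test unless DESeq2 is named. The 3 CoCl2 libraries did not overlap the 3 control libraries for any of the 229. As the genes were called on these same libraries, this is a description and no separate support. Some genes that were not called, GAPDH and MDM2 among them, did not overlap either. The share of all tested genes without overlap was not counted, so the 229 cannot be set against it. Rises were also larger than falls. Of the 208 genes, 56 were more than 2-fold and 123 more than 1.5-fold higher, with a median log2 fold change of 0.68, while the median of the 21 was -0.46. Over all tested genes the median log2 fold change was 0.00, and 7790 genes had a positive and 8078 a negative value. The count depended on single libraries, at 136 without control replicate A, 147 without control replicate B and 140 without CoCl2 replicate C, and 118 of the 229 genes were called in each of the 6 fits that left out 1 library, 115 of the higher and 3 of the lower ones.

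**Figure D1:**
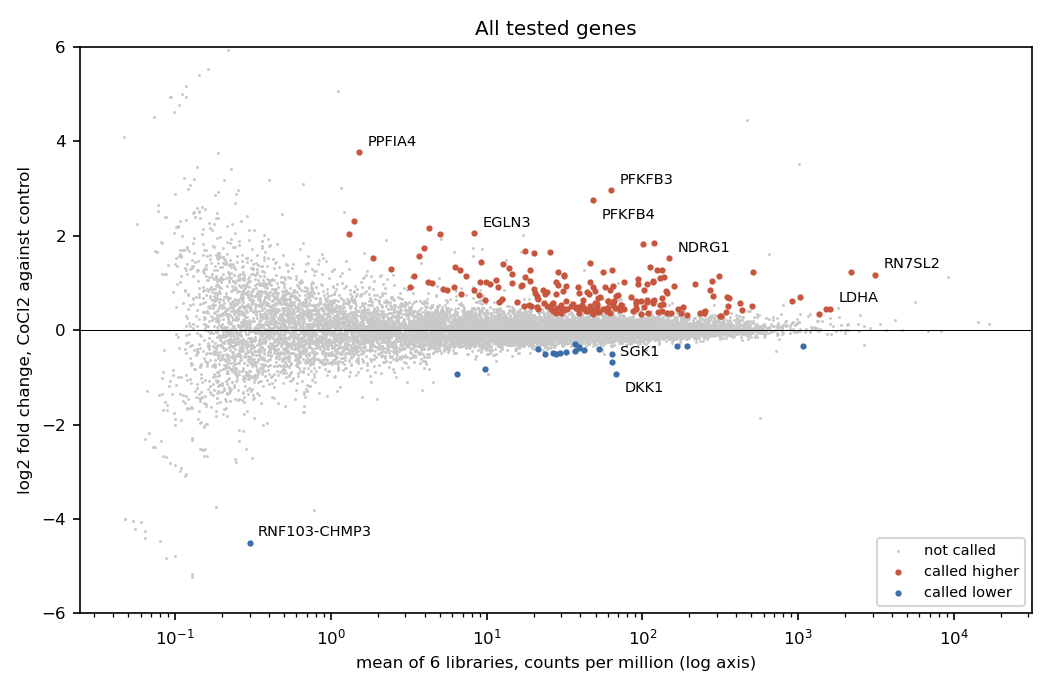
Log2 fold change of CoCl2 against control for every tested gene (points) against its mean over the 6 libraries in CPM, on a log axis. Genes called higher (208) lie above 0 at mean levels from 1.30 CPM (TCAF2) to 3105 CPM (RN7SL2). Those called lower (21) are fewer and, apart from RNF103-CHMP3, closer to 0. Beyond the vertical axis lie 11 ribosomal RNA genes, none of them called.

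Genes of the HIF system itself were read first. The mRNA of HIF1A, the oxygen-regulated subunit of HIF-1, was at 392, 443 and 359 CPM in control replicates A, B and C and at 367, 441 and 424 CPM in CoCl2 replicates A, B and C. That of EPAS1, which encodes HIF-2α, was at 313, 323 and 306 CPM in control and 323, 304 and 351 CPM in CoCl2 cells. The groups overlapped for both genes, with log2 fold changes of 0.05 (95% interval -0.16 to 0.25, adjusted p = 0.893) for HIF1A and 0.05 (-0.10 to 0.21, adjusted p = 0.808) for EPAS1. Among the 16 tested members of a list of oxygen sensing genes and HIF subunits, 3 were called, all higher, and 13 were not, and the median log2 fold change of the list was 0.03. These 3 were feedback genes that restrain HIF. EGLN3, a prolyl hydroxylase gene, rose from 3.76, 3.03 and 2.82 CPM in control to 15.1, 13.3 and 11.9 CPM in CoCl2 replicates, a log2 fold change of 2.06 ± 0.16 (SE, adjusted p = 4.4e-05). EGLN1, the main HIF prolyl hydroxylase gene, rose from 109 ± 7.56 to 209 ± 17.9 CPM (SD, n = 3), and CITED2, which competes with HIF for the coactivators p300 and CBP, rose from 33.5 ± 2.67 to 63.1 ± 5.61 CPM (SD, n = 3). These calls held when any 1 library was left out.

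Of 30 tested genes of glycolysis and glucose uptake, 10 were called higher (33.3%, against 1.44% of all tested genes), none lower, and 20 were not called. A positive log2 fold change was seen in 24 and a negative in 6, the median was 0.27, and DESeq2 called 16. PFKFB3 and PFKFB4, whose bifunctional enzymes set the level of the phosphofructokinase activator fructose 2,6-bisphosphate, changed most. PFKFB3 was at 15.03, 13.7 and 14.1 CPM in control and 123, 96.9 and 116 CPM in CoCl2 replicates. PFKFB4 was at 12.9, 10.9 and 13.7 CPM in control and 88.8, 74.4 and 88.9 CPM in CoCl2 replicates, a log2 fold change of 2.76 ± 0.11 (SE, adjusted p = 5.43e-07). The lowest CoCl2 library thus lay far above the highest control library for both. PDK1, the kinase that keeps pyruvate out of the citric acid cycle, rose by 1.33 ± 0.10 on the log2 scale (SE, adjusted p = 3.38e-05), and HK2, the hexokinase of the first step, by 1.15 ± 0.08 (SE, adjusted p = 1.93e-05). The rises of the glucose transporter gene SLC2A3, from 784 ± 52.6 to 1280 ± 60.3 CPM (SD, n = 3), and of PGK1, from 292 ± 4.97 to 418 ± 23.3 CPM (SD, n = 3), were under 2-fold. The other 4 called members, ENO2, LDHA, ALDOC and PKM, had log2 fold changes of 0.62, 0.46, 0.75 and 0.34. PKM lost its call without any of the 3 control libraries or CoCl2 replicate B or C, and ALDOC without control replicate A. GAPDH, a glycolytic enzyme often used as a reference gene, was at 1612, 1568 and 1788 CPM in control and 2061, 1895 and 2094 CPM in CoCl2 cells. Those groups did not overlap, but the log2 fold change of 0.28 (95% interval 0.13 to 0.44, adjusted p = 0.108) did not pass the threshold in edgeR, while it passed in DESeq2 (adjusted p = 0.00725) and, in edgeR, without control replicate C (adjusted p = 0.038) or CoCl2 replicate B (adjusted p = 0.0305).

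**Figure D2:**
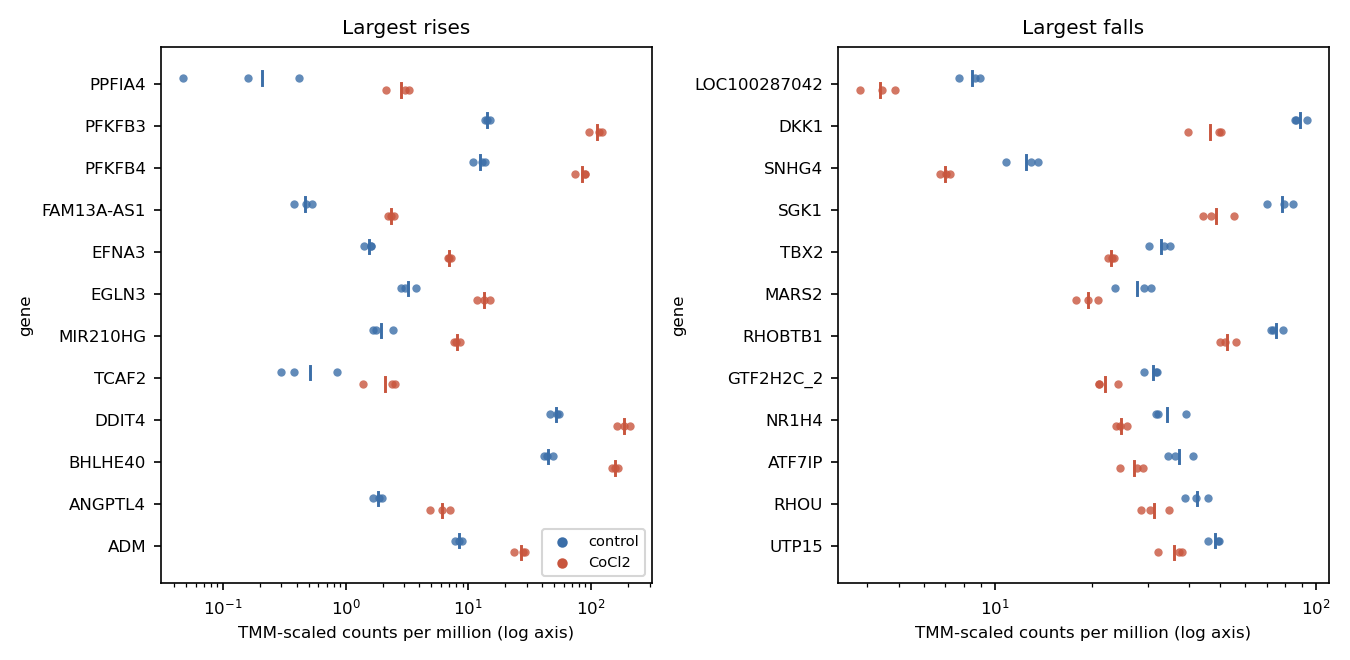
TMM-scaled CPM (log axis) of the 12 called genes with the largest rise and the 12 with the largest fall among those averaging at least 1 CPM, with 1 point per library and a bar at the group mean. The 3 CoCl2 points lie apart from the 3 control points for every gene, by a wider gap among the rises (PFKFB3, 14.3 to 112 CPM on average) than among the falls (DKK1, 88.8 to 46.7 CPM).

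Glycogen genes were called in smaller number. Of 19 tested members, 4 were called, all higher (21.1%), with a list median of 0.22. PPP1R3C, which encodes a subunit that targets protein phosphatase 1 to glycogen and favours its synthesis, rose from 13.1, 11.9 and 11.9 CPM in control to 42.2, 34.8 and 39.8 CPM in CoCl2 replicates (log2 fold change 1.66 ± 0.09 (SE), adjusted p = 5.32e-06). STBD1, a glycogen-binding protein gene, rose from 22.04 ± 0.873 to 42.3 ± 3.01 CPM, and GYS1, the glycogen synthase gene of muscle and most other tissues, from 47.3 ± 2.73 to 73.1 ± 4.51 CPM (SD, n = 3 each). The call of PPP1R3E, another targeting subunit, with a log2 fold change of 0.49, was lost without any of the 3 control libraries or CoCl2 replicate A. None of the 7 tested genes of gluconeogenesis was called by edgeR or DESeq2 (1 had an unadjusted p under 0.05), and the mitochondrial PCK2 was at 117 ± 7.57 CPM in control and 98.2 ± 11.97 CPM in CoCl2 cells (SD, n = 3, adjusted p = 0.350).

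The 2-oxoglutarate dioxygenases, the family of the oxygen sensors, use iron, oxygen and 2-oxoglutarate, and include histone and DNA demethylases and the hydroxylases that mature collagen. Of 30 tested genes 11 were called (36.7%), all higher, 19 were not, and the list median was 0.15, with 9 negative values. The histone demethylase gene KDM3A was at 77.3, 79.1 and 78.3 CPM in control and 185, 187 and 198 CPM in CoCl2 replicates, a log2 fold change of 1.28 ± 0.07 (SE, adjusted p = 2.83e-06). The spread within each group was small beside this gap. TET1, which oxidizes 5-methylcytosine in DNA, rose by 0.86 (adjusted p = 0.000267), the collagen lysyl hydroxylase PLOD2 by 0.69 (adjusted p = 0.000445), the collagen prolyl hydroxylase P4HA1 by 0.55 (adjusted p = 0.00115), KDM5B by 0.58 (adjusted p = 0.00233) and JMJD6 by 0.58 (adjusted p = 0.00202) on the log2 scale. The other 5, TET2, KDM2A, P4HA2, KDM4B and KDM7A, had log2 fold changes between 0.37 and 0.52. Their calls were the least stable, and the count of the list was 6 without control replicate A or C or CoCl2 replicate C and 7 without control replicate B.

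Among 21 tested angiogenic and secreted factors, 10 were called (47.6%), all higher, with a list median of 0.40. VEGFA, the endothelial growth factor, was at 75.2, 69.3 and 71.4 CPM in control and 132, 141 and 151 CPM in CoCl2 replicates (log2 fold change 0.98 ± 0.08 (SE), adjusted p = 4.92e-05). ADM, the vasodilator adrenomedullin, was at 8.80, 7.82 and 8.45 CPM in control and 27.8, 23.6 and 28.7 CPM in CoCl2 replicates (1.68 ± 0.11, adjusted p = 1.44e-05). For both genes the rise exceeded the spread within the groups. ANGPTL4, an inhibitor of lipoprotein lipase, rose from 1.83 ± 0.164 to 6.05 ± 1.14 CPM (SD, n = 3). STC2, IGFBP1 and LOX, which encode a stanniocalcin, an insulin-like growth factor binding protein and the collagen cross-linking lysyl oxidase, had log2 fold changes of 1.10, 1.03 and 0.93. EPO, the hormone of red cell production, was at 4.13, 3.03 and 3.48 CPM in control and 9.75, 8.21 and 8.93 CPM in CoCl2 cells (1.34 ± 0.16, adjusted p = 0.00118). The remaining calls, FGF11 (1.02) and GDF15 (0.36, adjusted p = 0.0499), were each lost in 4 of the 6 fits without 1 library, in both cases without control replicates A and B and CoCl2 replicate C, for FGF11 also without control replicate C and for GDF15 without CoCl2 replicate A.

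Of 39 tested genes in a list of other reported HIF targets, every one had a positive log2 fold change, 26 were called higher (66.7%), and the median was 0.92. The list stood further from the median of all genes than any other. As the lists were chosen with earlier results of these data known, this rank is a description and no independent support. NDRG1, a stress-responsive gene, was at 73.8, 77.5 and 77.3 CPM in control and 225, 210 and 224 CPM in CoCl2 replicates (log2 fold change 1.53 ± 0.07 (SE), adjusted p = 7.63e-07). BHLHE40, a transcriptional repressor of the circadian system, was at 48.6, 41.0 and 44.1 CPM in control and 149, 158 and 167 CPM in CoCl2 replicates (1.82 ± 0.09, adjusted p = 1.59e-06). DDIT4, an inhibitor of mTORC1, was at 55.2, 46.3 and 52.5 CPM in control and 207, 162 and 184 CPM in CoCl2 replicates (1.85 ± 0.10, adjusted p = 5.26e-06). These 3 genes were 2.88-fold, 3.54-fold and 3.60-fold higher in CoCl2 cells, with no overlap. PPFIA4, a liprin gene, had the largest rise of any called gene, at 0.161, 0.0474 and 0.420 CPM in control and 3.29, 3.02 and 2.15 CPM in CoCl2 replicates, and as no control library had more than 7 counts its log2 fold change of 3.78 (95% interval 2.68 to 4.88, adjusted p = 0.00202) is imprecise. MIR210HG, the host transcript of miR-210, rose by 2.04 ± 0.19 (SE, adjusted p = 0.000134), and the carbonic anhydrase gene CA9 was at 7.94, 5.12 and 8.03 CPM in control and 22.4, 13.8 and 19.1 CPM in CoCl2 cells. RORA, a nuclear receptor gene, FUT11, a fucosyltransferase gene, and PLIN2, which coats lipid droplets, had log2 fold changes of 1.17, 1.03 and 1.04.

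Of 20 tested genes of mitophagy and mitochondrial adaptation 3 were called (15%), all higher, and the list median was 0.12. BNIP3 and BNIP3L, receptors that mark mitochondria for removal, rose from 77.2 ± 3.39 to 158 ± 12.2 CPM and from 59.6 ± 8.47 to 127 ± 5.06 CPM, and FAM162A, a mitochondrial protein gene, from 32.0 ± 1.54 to 56.3 ± 3.20 CPM (SD, n = 3 each). No gene was called among the 45 nuclear genes of the respiratory chain (median 0.02, from -0.23 to 0.54) or among the 23 of the citric acid cycle and pyruvate dehydrogenase (median -0.01, from -0.24 to 0.16). The same was true of the 21 genes of fatty acid oxidation (median -0.05) and the 25 of cholesterol synthesis and uptake (median -0.08), of which INSIG1, which most cells express, was listed at 0 and not tested. At an unadjusted p under 0.05 these lists held 3, 1, 2 and 2 genes in that order, and DESeq2 called 2 of the fatty acid oxidation genes and none of the other lists. Among 27 tested genes of fatty acid synthesis and lipid droplets, 3 were called by edgeR, all higher, and 5 by DESeq2, and 19 had a negative value. They were PLIN2, HILPDA (from 7.36 ± 0.234 to 15.4 ± 0.926 CPM), an inhibitor of lipid breakdown, and VLDLR (from 5.93 ± 0.470 to 12.1 ± 1.23 CPM, SD, n = 3), a lipoprotein receptor gene.

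**Figure D3:**
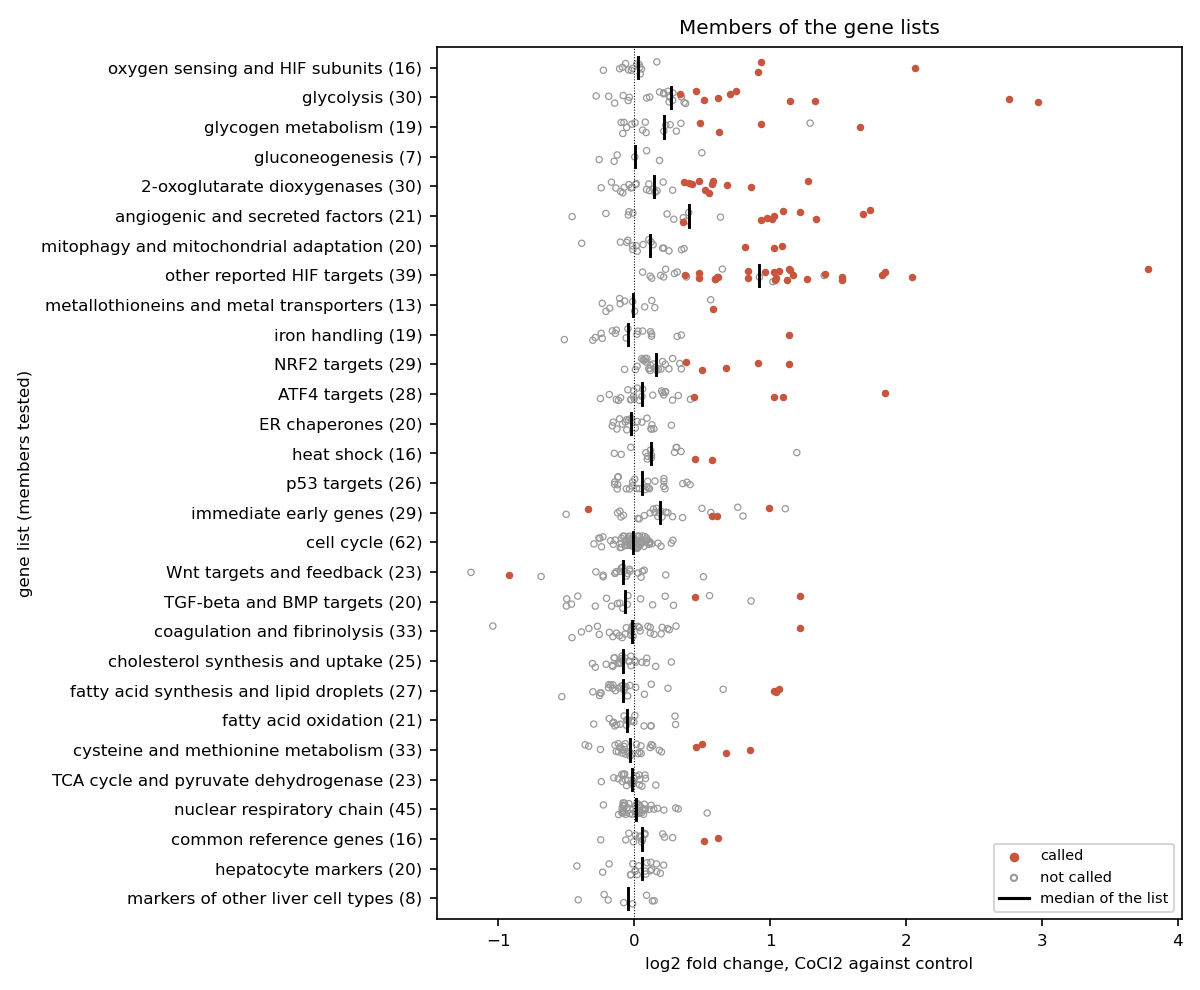
Log2 fold change of CoCl2 against control for each tested member of the 29 gene lists (points, filled where called), with a bar at the list median and the number tested in brackets. The other reported HIF targets lie furthest to the right (26 of 39 called), while no point is filled in, for example, the cell cycle (62 tested) and nuclear respiratory chain (45 tested) lists. All lists were chosen with earlier results of these data known.

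Lists of oxidant and metal responses were read next. Of 29 tested targets of NRF2, the regulator of antioxidant defence, 5 were called higher (17.2%), 28 had a positive value, and the median was 0.16. At an unadjusted p under 0.05 there were 14 of them, and DESeq2 called 8. HMOX1, the heme oxygenase that is also a HIF target and is counted in 3 of the lists, was at 92.7, 76.1 and 89.5 CPM in control and 211, 166 and 190 CPM in CoCl2 cells (log2 fold change 1.14 ± 0.10 (SE), adjusted p = 0.000132). OSGIN1 rose by 0.91 (adjusted p = 0.000254), GCLM and GCLC, the subunits of the enzyme that starts glutathione synthesis, by 0.68 and 0.50 (adjusted p = 0.0027 and 0.00202), and the thioredoxin reductase gene TXNRD1 by 0.38 (adjusted p = 0.00728), the last with its call lost without CoCl2 replicate C. Of 13 tested metallothioneins and metal transporters only SLC30A10, a manganese exporter gene, was called, at 22.9, 20.9 and 19.96 CPM in control and 32.6, 32.4 and 30.6 CPM in CoCl2 cells (0.58 ± 0.08, adjusted p = 0.0027). The metallothionein gene MT2A, at 61.2, 46.2 and 78.0 CPM in control and 77.5, 119 and 78.1 CPM in CoCl2 cells, overlapped between groups (adjusted p = 0.313), and the zinc exporter gene SLC30A1 had a value of -0.21 (adjusted p = 0.314). Of 19 tested iron handling genes edgeR called 1, HMOX1 (5.26%), with 4 at an unadjusted p under 0.05, and DESeq2 called 3. The ferritin heavy chain gene FTH1 had a value of 0.35 (adjusted p = 0.247), which passed in DESeq2 (adjusted p = 0.0325) and without control replicate C in edgeR (0.50, adjusted p = 0.0151).

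Of 28 tested ATF4 targets 4 were called, all higher (14.3%, median 0.06). DDIT4, STC2 and VLDLR have been described, and PPP1R15A, which directs dephosphorylation of the initiation factor eIF2α, went from 27.1 ± 1.62 to 36.8 ± 3.83 CPM (SD, n = 3, adjusted p = 0.0382), with its call lost without any of the 3 control libraries or CoCl2 replicate B or C. Of the 16 tested heat shock genes 2 were called (12.5%), HSPA1A (0.57, adjusted p = 0.0226) and BAG3 (0.45, adjusted p = 0.0285), and neither was called without control replicate A or B or CoCl2 replicate C. DESeq2 called 5 heat shock genes, and edgeR 4 without CoCl2 replicate B, the library that stood apart. HSPA1A has a near-identical copy, HSPA1B, between which reads may have been split. None of the 20 endoplasmic reticulum chaperone genes was called by edgeR or DESeq2 (1 with an unadjusted p under 0.05), and HSPA5 was at 1205 ± 23.6 CPM in control and 1173 ± 36.8 CPM in CoCl2 cells (SD, n = 3). None of 26 p53 targets was called in edgeR (median 0.06, 6 with an unadjusted p under 0.05) and 1 in DESeq2, with MDM2 at 0.22 (adjusted p = 0.279). None of 62 cell cycle genes was called by edgeR or DESeq2 (median -0.01, 7 with an unadjusted p under 0.05), although in edgeR without CoCl2 replicate A there were 2 calls, and the proliferation marker MKI67 then had a value of 0.41 (adjusted p = 0.0495) in place of 0.27 (adjusted p = 0.414). Of 29 immediate early genes, 3 were called higher and 1 lower (13.8%, median 0.19). FOSL2, a component of AP-1, rose by 0.61 (adjusted p = 0.00167) and DUSP1, a MAP kinase phosphatase gene, by 0.58 (adjusted p = 0.00439). The calls of ZFP36 (0.99, adjusted p = 0.0221) and CCN2 (-0.34, adjusted p = 0.029) were lost without control replicate A or B or CoCl2 replicate C, that of CCN2 also without each of the other 3 libraries.

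In cysteine and methionine metabolism 4 of 33 tested genes were called (12.1%), all higher, and the list median was -0.03. MAT2A, the S-adenosylmethionine synthetase gene of extrahepatic and proliferating cells, was at 203, 181 and 200 CPM in control and 342, 326 and 383 CPM in CoCl2 cells (0.85 ± 0.08 (SE), adjusted p = 0.000132), and the others were GCLC, GCLM and LDHA. In coagulation and fibrinolysis 1 of 33 was called by edgeR (3.03%) and 2 by DESeq2. PROS1, the protein S gene on which the study centres, was at 75.9, 77.5 and 65.9 CPM in control and 76.0, 68.2 and 71.4 CPM in CoCl2 cells, so that the groups overlapped (log2 fold change -0.03, 95% interval -0.22 to 0.17, adjusted p = 0.943). At this dose and time the paper reports a significant reduction of PROS1 mRNA by RT-qPCR and of the protein by immunoblot in HepG2 cells. These counts did not show a fall of the mRNA, and the cause of the difference was not tested. Of 20 tested TGF-β and BMP targets 2 were called by edgeR (10%) and 4 by DESeq2, among the former INHBE, an activin subunit gene (0.45, adjusted p = 0.0217) that kept its call only without CoCl2 replicate B. Of 16 common reference genes 2 were called (12.5%), among them PGK1, which was 1.43-fold higher in CoCl2 cells (adjusted p = 0.00149).

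The falls were small, and their number was 7 without control replicate A or B, 11 without control replicate C and 5 without CoCl2 replicate C, in place of 21. DKK1, a secreted inhibitor of Wnt signalling, was the 1 gene that edgeR called among 23 tested Wnt targets and feedback genes (4.35%, list median -0.08), of which DESeq2 called 2. It was at 93.5, 86.1 and 86.7 CPM in control and 49.7, 40.0 and 50.6 CPM in CoCl2 replicates. SGK1, a serum- and glucocorticoid-induced kinase gene, was at 70.5, 84.4 and 79.4 CPM in control and 55.2, 46.9 and 44.5 CPM in CoCl2 replicates (-0.68 ± 0.10 (SE), adjusted p = 0.0067). RHOBTB1, an atypical GTPase gene, was at 73.6, 78.7 and 72.4 CPM in control and 51.8, 50.2 and 56.4 CPM in CoCl2 replicates (-0.50 ± 0.08, adjusted p = 0.00964). These 3 were the only falls called in each of the 6 fits that left out 1 library. The transcription factor gene TBX2 (-0.51, adjusted p = 0.00732) lost its call only without CoCl2 replicate C, the uncharacterized LOC100287042 (-0.94, adjusted p = 0.00919) without control replicate B or C, and SNHG4, a snoRNA host transcript (-0.83, adjusted p = 0.00763), without control replicate B or C or CoCl2 replicate C. NR1H4, which encodes the bile acid receptor FXR, went from 34.4 ± 4.26 to 24.7 ± 0.9751 CPM (SD, n = 3, adjusted p = 0.0305) and was called only without CoCl2 replicate B. GTF2H2C_2 (-0.49), a near-identical copy of another gene, is uncertain, and was not called without control replicate A or B or CoCl2 replicate C. MARS2 (-0.51), ATF7IP (-0.46), RHOU (-0.44) and UTP15 (-0.43), which act in mitochondrial translation, gene silencing, GTPase signalling and ribosome assembly, each lost the call in 4 or 5 of the 6 fits, each of the 6 libraries being decisive for at least 1 of them. The single called gene averaging under 1 CPM, RNF103-CHMP3, had 17, 10 and 6 counts in control and 1, 0 and 0 in CoCl2 replicates. Against a floor of 3 counts per CoCl2 library, it was at least 3.24-fold under the observed control mean, whose own error is left out. It is a readthrough of neighbouring genes that share its reads, and its call (adjusted p = 0.0499) was lost in every fit that left out 1 library.

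Among the largest rises outside the lists, EFNA3, an ephrin gene, was at 1.61, 1.42 and 1.62 CPM in control and 6.91, 6.81 and 7.24 CPM in CoCl2 cells (2.17 ± 0.18 (SE), adjusted p = 5.79e-05). FAM13A rose from 9.76 ± 1.08 to 30.2 ± 0.733 CPM (SD, n = 3) together with its antisense transcript FAM13A-AS1, from 0.465 ± 0.0796 to 2.34 ± 0.141 CPM, and because the sources do not say that counting used strand, reads of this pair may not have been told apart. TCAF2 (2.03, adjusted p = 0.0459) lost its call without control replicate B or C or CoCl2 replicate A or C. CYP1A1, the aryl hydrocarbon receptor target, was at 39.5, 37.8 and 35.2 CPM in control and 101, 84.9 and 84.6 CPM in CoCl2 cells (1.26 ± 0.10, adjusted p = 4.03e-05). The 7SL RNA genes RN7SL1, RN7SL2 and RN7SL3, near-identical copies of the RNA of the signal recognition particle, took 0.253% to 0.484% of the counts in control and 0.578% to 0.852% in CoCl2 libraries, with log2 fold changes of 1.23, 1.18 and 0.98. Their calls were lost without control replicate B for all 3, and also without control replicate A for RN7SL1 and RN7SL2 and without CoCl2 replicate A, or in DESeq2, for RN7SL1.

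The same dose of CoCl2 in the presence of estrogen gave a different picture. Between CoCl2+estrogen and estrogen libraries, which share no sample with the comparison above, 2706 of 15925 genes were called (17.0%), 1297 higher (8.14%) and 1409 lower (8.85%), and 1671 without estrogen replicate A. The estrogen libraries, on which each value with estrogen rests, stood far from control after the 4 h of treatment, with mean levels 76.1 times those of control for IGFBP1, 26.1 times for PPP1R15A and 22.5 times for GDF15, and the part of this distance in the values below was not tested. All 229 genes were tested there. Of the 208 that CoCl2 raised without estrogen, 80 (38.5%) were called higher with it, 31 were called lower and 97 were not called, and the 80 made up 6.17% of the genes called higher with estrogen. The median log2 fold change of the 208 was 0.18 with estrogen, against 0.68 without. The 208 were chosen for a rise without estrogen. That choice favours a larger value without estrogen than with it, so the gap is a description. Of the 21 falls, 6 were called lower with estrogen, 3 were called higher and 12 were not called. PFKFB3 (1.92), EGLN3 (2.31), MIR210HG (2.98), FAM13A (2.90), PDK1 (1.60), BHLHE40 (1.14), NDRG1 (0.86) and KDM3A (0.84) were called higher on both backgrounds, and DKK1 (-0.67) was called lower on both. On 1 scaling of all 12 libraries, MIR210HG averaged 1.89 CPM in control, 7.75 in CoCl2, 0.355 in estrogen and 2.90 in CoCl2+estrogen cells. FAM13A averaged 9.46, 29.1, 1.56 and 11.5 CPM in that order. Their large values with estrogen thus started from a lower level, and CoCl2+estrogen cells stayed under CoCl2 cells. PPFIA4, PPP1R3C, DDIT4, VLDLR and STBD1 had values of 0.31, 0.05, 0.11, -0.04 and -0.08 with estrogen and were not called there.

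**Figure D4:**
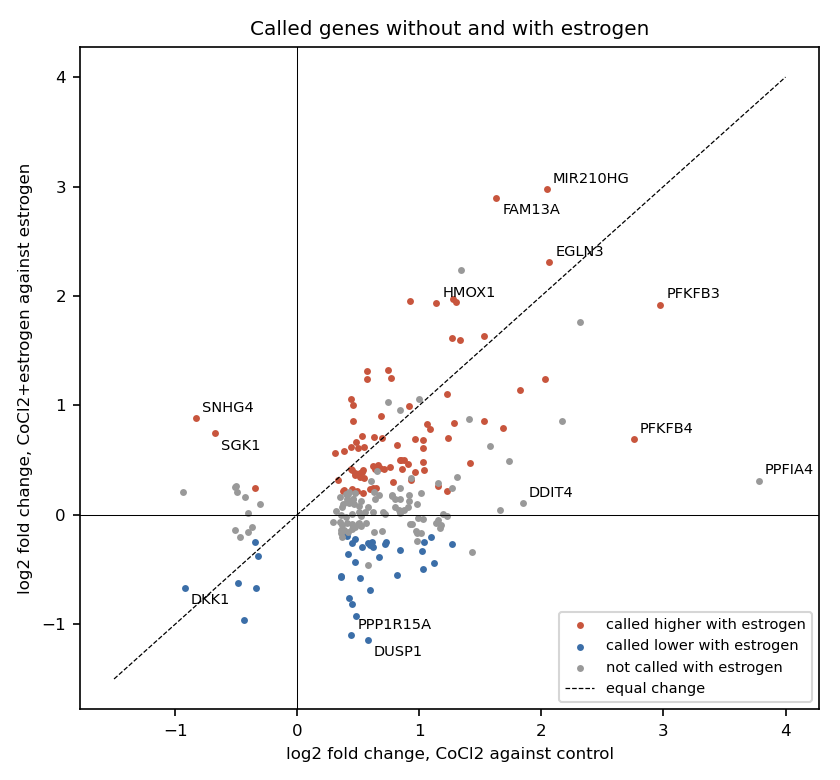
Log2 fold change of CoCl2+estrogen against estrogen (vertical axis) and of CoCl2 against control (horizontal axis) for the genes called in the latter, without RNF103-CHMP3, coloured by their call with estrogen; the dashed line marks equal change. Most genes called higher without estrogen lie below the line, a position that their choice by the horizontal value favours. With estrogen, 80 of 208 are called higher and 31 lower.

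Whether the CoCl2 change differed between the backgrounds was tested with an interaction term fitted to all 12 libraries, and 967 of 16681 genes were called (5.80%). Of the 229 genes called for CoCl2 alone, 139 were among them. In 117 of the 127 rises the interaction was negative, that is, the change was smaller or opposite with estrogen. As these genes were chosen for their change in libraries that also enter the interaction, this count is a description. The 8 with the smallest interaction p are given on a common scaling of all 12 libraries. PFKFB4 was at 12.5, 10.6 and 13.1 CPM in control, 85.5, 70.5 and 87.1 in CoCl2, 8.30, 6.98 and 7.46 in estrogen and 11.2, 13.2 and 12.2 in CoCl2+estrogen cells. DDIT4 was at 53.7, 45.02 and 50.4 CPM in control, 199, 154 and 181 in CoCl2, 79.5, 82.2 and 67.9 in estrogen and 82.1, 84.9 and 78.6 in CoCl2+estrogen cells. In both genes the CoCl2 libraries without estrogen stood above all others, and for DDIT4 the estrogen and CoCl2+estrogen libraries overlapped. The other 6 had their highest levels in estrogen cells. DUSP1 averaged 18.05 ± 1.12 CPM in control, 26.8 ± 0.856 in CoCl2, 178 ± 10.7 in estrogen and 80.3 ± 4.42 in CoCl2+estrogen cells (SD, n = 3 each). PPP1R15A averaged 26.2 ± 1.68, 35.4 ± 3.85, 685 ± 30.3 and 318 ± 21.9 CPM in the same order, and PIM1, a kinase gene, 55.0 ± 1.85, 76.3 ± 5.89, 537 ± 46.9 and 280 ± 18.1 CPM. For these 3 genes CoCl2 was thus followed by a rise without estrogen and a fall with it. BTG1, an antiproliferative gene, CYP1A1 and STC2 had the same pattern, with estrogen levels 10.1, 27.9 and 4.01 times those of control. The call for the rise without estrogen was lost for PPP1R15A without any control library or CoCl2 replicate B or C, for PIM1 without any control library or CoCl2 replicate C, and for BTG1 without control replicate A.

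**Figure D5:**
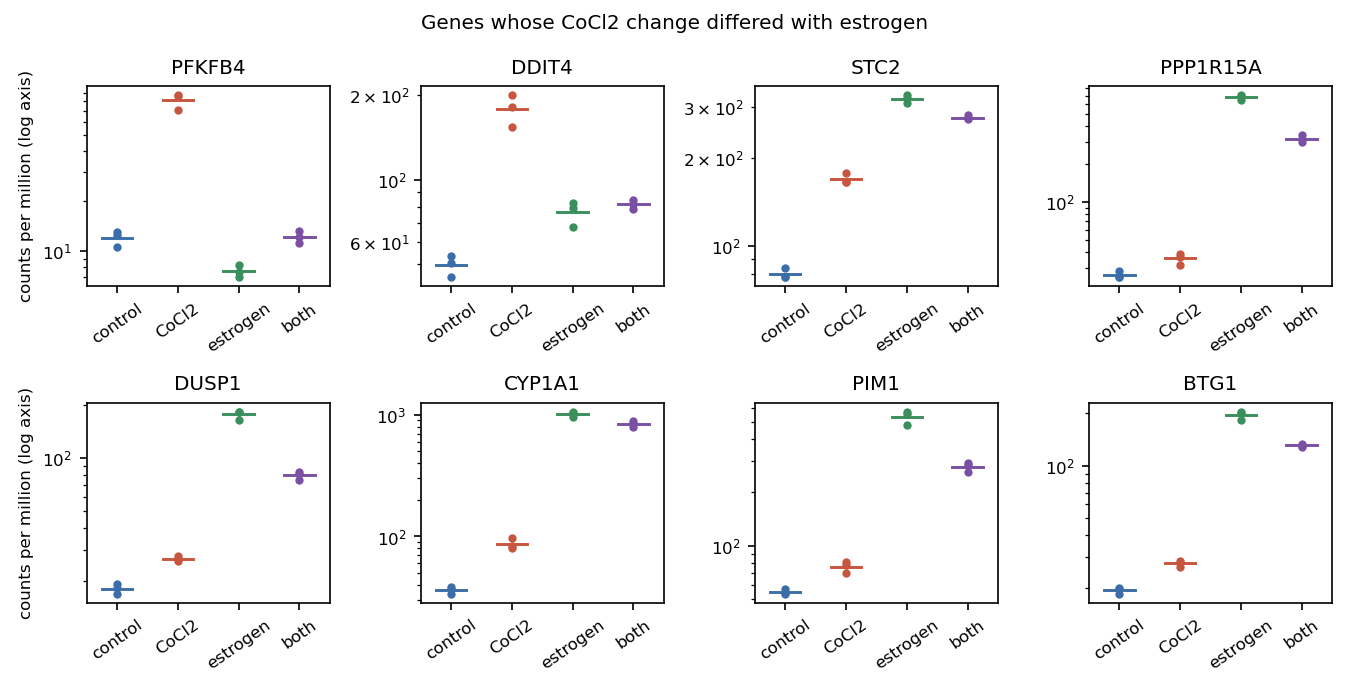
CPM on a log axis in the 12 HepG2 libraries, under 1 common scaling, for the 8 genes called for CoCl2 alone with the smallest interaction p; points are libraries, bars are group means, and "both" stands for CoCl2+estrogen. PFKFB4 and DDIT4 are highest with CoCl2 alone, and the other 6 are highest with estrogen alone.

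Genes whose CoCl2 change was larger with estrogen were fewer, 10 of the 127 rises. HMOX1 averaged 83.4 ± 8.48 CPM in control, 182 ± 23.5 in CoCl2, 41.6 ± 2.24 in estrogen and 158 ± 7.68 in CoCl2+estrogen cells (SD, n = 3 each), so that the level without CoCl2 was lower under estrogen. SGK1 went the other way with estrogen, from 32.3 ± 1.89 to 54.1 ± 1.47 CPM, and so did SNHG4, from 5.32 ± 0.535 to 9.77 ± 0.735 CPM (SD, n = 3 each).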

How the data were processed

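According to the study's methods, total RNA was depleted of ribosomal RNA and prepared with a stranded kit, reads of rDNA, tRNA and mitochondrial rDNA were removed with Bowtie2 (2.2.5), and the rest were aligned with STAR (2.7.8a) and counted on RefSeq transcripts in Partek Flow. The values the authors deposited are estimated counts for each gene with no scaling, and 23.8% of them were not whole numbers. Builds hg38 and mm10 are listed in the submitters' processing notes without a role, and no coordinates are used. They were rounded for edgeR 4.0.16 in R 4.3.3 (genes exceeding 5 counts in any library of the fit, TMM scaling, quasi-likelihood test, Benjamini-Hochberg adjusted p of at most 0.05), after the functions had been tested on simulated data. Each comparison of 2 groups used its 6 libraries and the interaction all 12. DESeq2 1.42.0, the study's own tool, was an alternative, as were other scalings and filters, all 12 libraries in one fit, a block for the replicate letter, and dropping each library in turn. CPM are scaled within a fit. A log2 fold change is that of CoCl2 over untreated cells on the same background. An SE is that of the log2 fold change, worked back from the F statistic of the quasi-likelihood test, and the intervals rest on it. A bound sets the observed mean of the higher group against a floor of 3 counts per library, with no allowance for error in that mean.

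Members and gene lists were chosen with earlier results of these data known. The 29 lists came from general knowledge, and some share genes. Named genes were the 12 largest rises and falls among called genes averaging at least 1 CPM, up to 6 called members of each list by adjusted p, or the 3 with the highest mean where fewer than 3 were called, HIF1A, EPAS1, PROS1, GAPDH, the called gene under 1 CPM and the 8 genes with the smallest interaction p. The text gives part of these. EPO, CA9, FAM13A, the 7SL RNA genes, ENO2, LDHA, ALDOC, PKM, TET2, KDM2A, P4HA2, KDM4B, KDM7A, FGF11, GDF15 and the choice of HMOX1, SGK1 and SNHG4 for the interaction were added after their values were seen. Some called genes are not reported here by name.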

Additional observations from a re-analysis of the deposited data

Results flagged for a closer look

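These 11 results are listed because the CoCl2 change differed between cells without and with estrogen in edgeR's interaction test, as the difference of 2 log2 fold changes (with estrogen minus without). It was -1.72 for DUSP1, -1.30 for STC2, -1.53 for CYP1A1, -1.75 for DDIT4, -1.54 for PPP1R15A, -1.41 for PIM1, -1.09 for BTG1 and -2.07 for PFKFB4, with edgeR adjusted p between 4.02e-08 and 1e-06. It was 0.80 for HMOX1, 1.42 for SGK1 and 1.71 for SNHG4, with edgeR adjusted p of 0.000772, 2.01e-06 and 1.27e-05. With estrogen the libraries with and without CoCl2 overlapped for DDIT4 and for none of the other 10. Groups of 3 libraries are too small for a search for single outlying samples.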

How the results depend on the processing

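The number of genes called for CoCl2 against control was 229, and 345 with DESeq2, 359 with all 12 libraries in one fit and 136 to 249 when 1 library was left out. Genes called higher numbered 208 and 129 to 227 without 1 library. Genes called lower numbered 21, and 41 with DESeq2, 43 without a filter on low counts, 54 with all 12 libraries, 42 with the replicate block, and 5 to 22 without 1 library. Under the replicate block 327 genes were called in all, 225 of the 229 among them, but the letters were not taken as pairs: deviations of same-lettered control and CoCl2 libraries from their group means correlated at 0.312 (A), 0.36 (B) and -0.08 (C) over 11858 genes, and control replicate C correlated best with CoCl2 replicate A (0.302). The 7 other alternatives (of 9 with all 6 libraries) gave 171 to 327 calls. No gene of the 229 changed sign in any alternative, and library totals alone, which shifted the median of all genes to -0.07, kept 163 of them. Called members numbered 16 for glycolysis with DESeq2, and for the 2-oxoglutarate dioxygenases 7 with library totals alone and 6 to 12 without 1 library. For CoCl2+estrogen against estrogen the count ranged from 1671 to 2493 without 1 library and was 3791 with the replicate block; for the interaction these values were 678 to 1044 and 771. Signs that were not called changed for HIF1A (-0.0188 with library totals alone, -0.021 to 0.13 without 1 library), EPAS1 (-0.0066 with library totals alone, -0.001 to 0.1028 without 1 library), PROS1 (-0.0915 to 0.0193 without 1 library), ALB (-0.0957 to 0.029 without 1 library) and LYZ (-0.0666 to 0.0336 without 1 library). The cause of these differences was not tested, beyond the smaller number of libraries in fits that left 1 out. Of 102 named called genes, 62 were called in every alternative, and of 285 counts for the smaller lists 233 stayed within 1.5 times the reported one. Leaving out the 7SL RNA genes, chosen after seeing the data, gave 223 calls. The planned search of promoters for a motif was not run, as no human reference sequence was used here. Depth limits the genes of low level, such as PPFIA4 and RNF103-CHMP3, and 3 libraries per group limit all.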

Other observations

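Several gene lists with few or no calls for CoCl2 alone held many calls for CoCl2+estrogen against estrogen, where 17.0% of all tested genes were called. Of 26 p53 targets 19 were called lower and none higher, with a median log2 fold change of -0.36, and MDM2 had a value of -0.77. Of 30 immediate early genes 24 were called lower and none higher (median -0.60), and of 28 ATF4 targets 15 lower and 1 higher (median -0.21). Calls in the other direction were seen for 11 of 16 heat shock genes (median 0.34), 13 of 20 endoplasmic reticulum chaperones, with 1 lower (median 0.26), and 18 of 29 NRF2 targets, with 2 lower (median 0.32). HSPA1A had a value of 1.32 and HSPA5 of 0.35 with estrogen. On 1 scaling of all 12 libraries, HSPA1A averaged 329 CPM in control, 486 in CoCl2, 91.5 in estrogen and 226 in CoCl2+estrogen cells. In that order HSPA5 averaged 1167.5, 1129, 604 and 766 CPM, and MDM2 615, 712, 1027 and 600 CPM. HSPA1A and HSPA5 thus rose from a lower level and stayed under control, while MDM2 fell from a higher one. The part of the estrogen level in the calls of these lists was not tested. Leaving out 1 library gave 17 to 19 calls for the p53 targets, 21 to 24 for the immediate early genes, 14 to 16 for the ATF4 targets, 8 to 11 for the heat shock genes, 10 to 13 for the chaperones and 16 to 21 for the NRF2 targets.

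APOL1 and APOL2, neighbouring apolipoprotein L genes that were looked at after their values were seen, were higher with CoCl2 on both backgrounds. APOL1 was at 73.6, 65.3 and 79.4 CPM in control and 102, 114 and 109 CPM in CoCl2 cells (edgeR adjusted p = 0.00728, lost without control replicate A or B), and APOL2 at 52.3, 49.5 and 54.1 CPM and 84.1, 92.2 and 85.0 CPM (edgeR adjusted p = 0.000508). With estrogen the log2 fold changes were 1.24 and 1.32. On 1 scaling of all 12 libraries, APOL1 averaged 70.4 CPM in control, 104 in CoCl2, 11.7 in estrogen and 27.5 in CoCl2+estrogen cells. APOL2 averaged 50.3, 83.8, 21.1 and 52.4 CPM in that order. The changes with estrogen thus started from a lower level, and CoCl2+estrogen cells stayed under CoCl2 cells for both genes.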
